A study of Homo sapiens with 2 samples.

Results

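The genes described here belong to the machinery by which cells hold on to their matrix. They comprise 34 genes, namely 19 integrin subunits and 15 intracellular adaptor and kinase genes, of the 21743 genes named on the array. They were chosen by name through the RefSeq accession of each probe, and all 34 had at least 1 probe. MRC-5, an established human fibroblast line of fetal lung origin, was transfected with periostin siRNA at 10 nM for 48 h or with control siRNA, for which the dose and time on the arrays are not given in the sources used here. The study asked which genes these cells express in dependence on periostin. Total RNA of each condition was labelled with Cy3 and hybridized to 1 single-colour Agilent array, with both arrays on 1 slide. The conditions could not be tested against each other without replicate cultures, and an effect of the siRNA cannot be told apart from a difference between the 2 cultures.

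Integrins are receptors made of an alpha and a beta subunit that span the membrane and bind matrix proteins outside the cell. Inside the cell the beta tail is bound by talin and kindlin, which switch the receptor on, and by adaptor proteins. The adaptors tie the receptor to actin and recruit kinases such as focal adhesion kinase and Src, and the kinase-like scaffold integrin-linked kinase. The assembled site is the focal adhesion, through which fibroblasts pull on matrix and receive signals for survival and growth. Periostin is a secreted matrix protein. The receptors that the study lists for it pair alpha V with beta 1, beta 3 or beta 5, alpha 6 with beta 4, and alpha M with beta 2.

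Signals below are in arbitrary units after both arrays were scaled to a common 75th percentile. Each log2 ratio is periostin siRNA over control siRNA, so that a value below 0 is lower with periostin siRNA. The error after a ratio is the error propagated from the scanner software for a single spot, or the SD over spots for the 3 members that were printed as 10 spots. Neither covers the difference between cultures. The propagated error of a spot was 0.20 for those 3 members too, so a smaller SD does not make their ratios firmer. Probes differ in how brightly they report the same amount of RNA, so genes are compared by their ratios and not by their signals.

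POSTN, the gene that the siRNA targets, gave a signal of 2638 on the control array and 280 after knockdown, a log2 ratio of -3.24 ± 0.20. All 10 fibroblast markers, among them COL1A2, VIM and THY1, were well above background on both arrays, with a median log2 ratio of -0.10. Of the markers of other cells, the epithelial CDH1 and NKX2-1, the endothelial PECAM1 and TIE1, the leukocyte MS4A1 and ITGB2 and the smooth muscle MYH11 were not well above background on either array. A ratio could be given for 5 of 7 epithelial, 4 of 6 endothelial, 4 of 6 leukocyte and 3 of 4 smooth muscle markers. The summed signal went from 4038 to 6079 over the 7 epithelial markers and from 168 to 161 over the 6 endothelial markers. It went from 1845 to 3038 over the 6 leukocyte markers and from 10570 to 60600 over the 4 smooth muscle markers. KRT18 made up most of the epithelial sum, from 3048 to 4264, and CD68 most of the leukocyte sum, from 1528 to 2451. ACTG2 made up most of the smooth muscle sum, from 7266 to 51724. The median log2 ratio was 0.77 over the epithelial, -0.13 over the endothelial and 0.60 over the leukocyte markers with a ratio. CNN1, which held the median of the smooth muscle list, went from 3031 to 8556, and EPCAM at 1.97, KRT19 at 1.04 and CD14 at 0.94 were among the markers that were higher. Of 7 proliferation markers, 5 lay beyond 3-fold on the low side and the median was -2.96, while MCM2 was at -0.20 and PCNA at 0.42. All 7 interferon response markers were above 0, 4 of them by more than 3-fold, with a median of 1.92. The part of these changes in the values of the adhesion genes was not tested, and in RNA of a whole culture a lower level in every cell and fewer cells with the RNA cannot be told apart.

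A ratio could be given for 33 of the 34 adhesion genes, all of them well above background on both arrays. ITGB6 was not well above background on either array. The ratio was above 0 for 18 genes and below 0 for 15, with a median log2 ratio of 0.07, against 0.06 over the 16052 named genes with a ratio. The ratios ran from -1.89 for ITGA2 to 2.03 for TNS1, and 17 of the 33 genes, or 51.5%, lay within 0.5 of 0, compared with 62.6% of all genes. At the 3-fold threshold that the study used, 2 members were lower, ITGA2 and FERMT2, and 3 were higher, ITGB4, TNS1 and LIMS2. That is 6.06% lower and 9.09% higher, where the shares among all genes past 3-fold were 2.75% lower and 3.37% higher. At 2-fold, ITGA4 and ITGA6 joined the lower genes and ITGB8 and TNS3 the higher ones, which made 12.1% lower and 15.2% higher, against 6.42% and 7.97% of all genes. The shares rest on few genes and are given as a description. ITGA6 lay just inside the 3-fold limit with a fold of 2.96, and ITGB4 just outside it with 3.17.

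**Figure D1:**
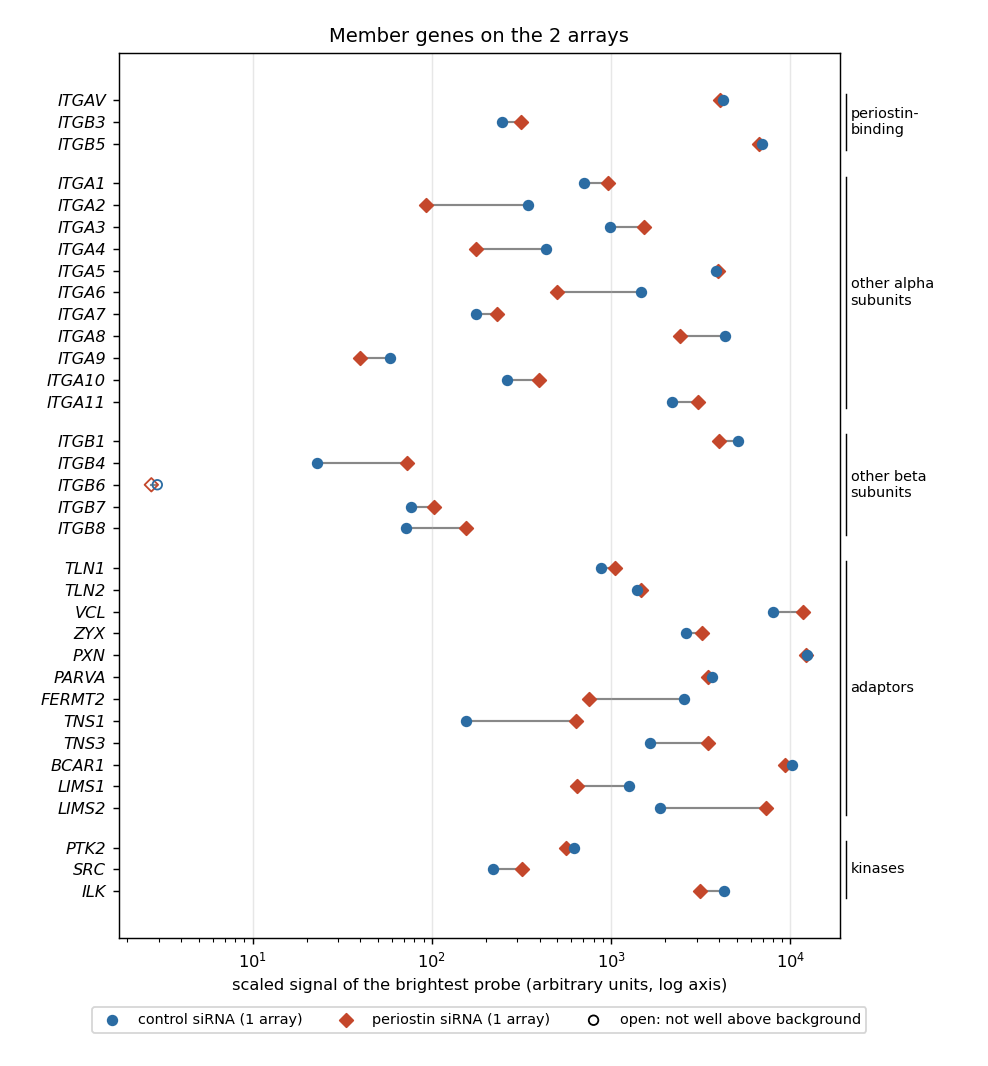
Scaled signal of the brightest probe of each of the 34 adhesion genes (horizontal log axis, arbitrary units) on the control siRNA array (circles) and the periostin siRNA array (diamonds), grouped by role, with open symbols for a gene not well above background on either array. Most pairs lie close together, and the long lines belong to ITGA2, ITGA4, ITGA6, ITGB4, ITGB8, FERMT2, TNS1, TNS3, LIMS1 and LIMS2. The group labelled periostin-binding holds ITGAV, ITGB3 and ITGB5 only. ITGB1, ITGA6 and ITGB4, chains of further periostin receptors, are drawn under the other subunits.

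To show the DNA in front of the genes that moved most, the 250 bases before the transcription start are printed for the members past 3-fold and for LIMS1, the paralogue of LIMS2. They were taken from RefSeq's table for GRCh38.p14, on the strand of the gene, from the most upstream of the starts listed for it. ITGB4 is past 3-fold and is named only. Of the 34 genes, 26 matched the table, with 48 starts between them. Capitals mark the GC box, GGGCGG on either strand, the motif of Sp1-type factors.
ITGA2 (chr5:52989102-52989351, plus strand): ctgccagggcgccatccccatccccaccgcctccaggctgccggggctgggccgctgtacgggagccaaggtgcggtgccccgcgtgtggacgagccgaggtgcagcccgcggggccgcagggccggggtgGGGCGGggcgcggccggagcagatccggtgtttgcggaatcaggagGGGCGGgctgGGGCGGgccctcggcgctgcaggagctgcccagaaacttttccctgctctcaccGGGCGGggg
FERMT2 (chr14:52951051-52951300, minus strand): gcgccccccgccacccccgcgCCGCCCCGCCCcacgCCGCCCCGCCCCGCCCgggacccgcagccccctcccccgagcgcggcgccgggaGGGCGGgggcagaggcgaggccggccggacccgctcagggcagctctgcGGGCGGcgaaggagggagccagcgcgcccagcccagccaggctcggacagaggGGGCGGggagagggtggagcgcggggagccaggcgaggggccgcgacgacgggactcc
TNS1 (chr2:218010276-218010525, minus strand): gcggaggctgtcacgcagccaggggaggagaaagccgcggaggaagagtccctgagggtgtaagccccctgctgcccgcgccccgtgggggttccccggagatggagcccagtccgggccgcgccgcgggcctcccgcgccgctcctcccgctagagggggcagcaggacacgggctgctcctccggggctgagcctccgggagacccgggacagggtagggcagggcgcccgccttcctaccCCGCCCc
LIMS1 (chr2:108534220-108534469, plus strand): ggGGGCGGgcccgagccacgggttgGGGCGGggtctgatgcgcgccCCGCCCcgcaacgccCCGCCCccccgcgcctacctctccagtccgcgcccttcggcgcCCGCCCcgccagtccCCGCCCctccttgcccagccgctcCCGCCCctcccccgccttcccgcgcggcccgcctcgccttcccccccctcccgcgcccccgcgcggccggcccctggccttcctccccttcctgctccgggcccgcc
LIMS2 (chr2:127681787-127682036, minus strand): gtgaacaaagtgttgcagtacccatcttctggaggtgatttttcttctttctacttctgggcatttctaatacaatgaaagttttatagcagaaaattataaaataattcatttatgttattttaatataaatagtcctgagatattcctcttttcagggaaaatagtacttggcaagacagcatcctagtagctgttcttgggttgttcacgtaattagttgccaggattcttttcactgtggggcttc
The stretches before FERMT2 and LIMS1, both lower with periostin siRNA, consisted of G and C at 84.4% and 84.0% of bases and held 8 and 7 GC boxes, some of which overlap before FERMT2. The stretch before ITGA2, also lower, held 4 and was 76.4% G and C. TNS1, which was higher, held 1 at 76.0%, and LIMS2 held none at 34.8%. LIMS2 has 4 listed starts and TNS1 has 5, and the arrays do not tell which of them was used. Another start of LIMS2 held 2 GC boxes at 65.6%. Among other members, ITGA4 and ITGA8, both lower, held none and 4. VCL and ZYX, both above 0, held 3 and 5, and PXN, at -0.02, held 8 before its most upstream start. These are single examples, and a relation between boxes and ratios was not tested. Over all starts of the members, 24 of 48 held a GC box, as did 42.6% of the 35116 starts in the table. The TEAD motif GGAATG was held by 14.6% of the members' starts and 11.9% of all, the AP-1 motif TGANTCA by 4.17% and 6.57%, and the CArG box of serum response factor by 2.08% and 1.16%, each searched on both strands. None of these 3 motifs was in the 5 stretches above. A match is a description of the letters and not of a bound site.

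The alpha V chain and its partners beta 3 and beta 5, which are periostin receptors, came first in the comparison. ITGAV, the alpha V subunit that pairs with beta 1, 3, 5, 6 and 8, was printed as 10 spots. Their signals ran from 4039 to 4415 with control siRNA, with a median of 4222, and from 3864 to 4246 with periostin siRNA, with a median of 3999. The spots of the arrays overlapped, and the log2 ratio was -0.06 ± 0.06 (SD over 10 spots). ITGB3 encodes the beta 3 subunit, whose complex with alpha V the study describes as the dominant receptor for periostin in lung fibroblasts. It went from 247 to 316, a log2 ratio of 0.35 ± 0.20, and 28.4% of all genes had a ratio at least as high. ITGB5, another partner of alpha V in a periostin receptor, went from 6972 to 6676, a ratio of -0.06 ± 0.20. All 3 lay within 0.5 of 0 on the log2 scale, with differences of at most 1.28-fold, while the log2 ratio of POSTN was -3.24. The chains of its other receptors did not all lie so close to 0. The log2 ratio was -0.34 for ITGB1, -1.57 for ITGA6, 1.67 for ITGB4 and 1.58 for ITGAM, each described further on, and ITGB2 was not well above background on either array.

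**Figure D2:**
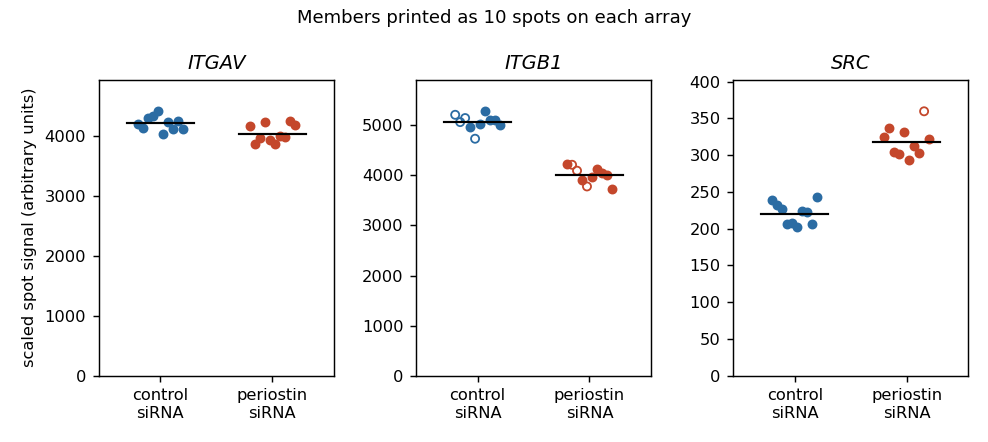
Scaled signal (vertical axis from 0, arbitrary units) of each of the 10 spots of ITGAV, ITGB1 and SRC on the control siRNA and periostin siRNA arrays, with open circles for spots that carry an outlier flag and bars at the mean on the log scale. The spots of the arrays overlap for ITGAV and are apart for ITGB1 and SRC. The spots are repeats on 1 array and not separate cultures.

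The other partners of alpha V differed among themselves. ITGB1, the beta subunit shared by most integrins of fibroblasts and by a periostin receptor, was printed as 10 spots. Those spots ran from 4732 to 5280 with control siRNA and from 3720 to 4226 with periostin siRNA, without overlap, and the log2 ratio was -0.34 ± 0.04 (SD over 10 spots). An outlier flag was carried by 4 of these spots on the control array and 3 on the other. ITGB8, whose complex with alpha V binds and activates latent TGF-beta, went from 71.5 to 154, a ratio of 1.11 ± 0.21. ITGB6, which does the same in epithelia, gave 2.94 and 2.73, below the level at which a signal was called well above background. Among the alpha subunits that share the RGD motif of their ligands with alpha V, ITGA5, the fibronectin receptor chain, went from 3839 to 3925, a ratio of 0.03 ± 0.20. ITGA8, a mesenchymal chain that binds nephronectin and osteopontin, went from 4323 to 2414, a ratio of -0.84 ± 0.20, and 8.29% of all genes had a ratio at least as low.

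The collagen-binding integrins pair an alpha 1, alpha 2, alpha 10 or alpha 11 subunit with beta 1. ITGA2, the receptor chain best known from platelets and epithelia, went from 342 to 92.3, a log2 ratio of -1.89 ± 0.21, or 3.71-fold lower. It was the lowest of all 33 adhesion genes, and 1.88% of all genes had a ratio at least as low. The other 3 collagen-binding chains lay on the opposite side of 0. ITGA1 went from 705 to 961, a ratio of 0.45 ± 0.20. ITGA10, known from cartilage, went from 264 to 398, a ratio of 0.59 ± 0.20. ITGA11, the main collagen receptor chain of fibroblasts, went from 2190 to 3043, a ratio of 0.47 ± 0.20. Their ratios lay 2.34 to 2.48 above that of ITGA2, each with a spot error of 0.29, while differences among the 3 were smaller than that error.

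The laminin-binding integrins showed a similar split. ITGA6, a chain of laminin receptors that pairs with beta 1 or beta 4, went from 1471 to 496 on its brighter probe, a log2 ratio of -1.57 ± 0.20, and from 425 to 152 on its other probe, a ratio of -1.49. Both probes thus reported a similar difference, a little short of 3-fold. ITGA3 went from 981 to 1531, a ratio of 0.64 ± 0.20, and ITGA7, the main laminin receptor chain of muscle, from 176 to 230, a ratio of 0.39 ± 0.21. ITGB4, which pairs only with alpha 6 and anchors epithelial cells at hemidesmosomes, went from 22.9 to 72.5, a ratio of 1.67 ± 0.24. These are dim signals, where the SD between repeat spots of other probes was 0.25. The ratio of ITGB4 lay 3.23 above that of ITGA6, its obligatory partner, with which it forms a periostin receptor.

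The chains alpha 4 and alpha 9, which between them bind VCAM1, splice forms of fibronectin and tenascin, were both lower. ITGA4 was measured by 3 probes. The brightest went from 430 to 176, a log2 ratio of -1.29 ± 0.20, and the others went from 199 to 138 and from 63.0 to 37.9, ratios of -0.53 and -0.73. All 3 probes were lower with periostin siRNA, and the brightest stood apart from the others by more than the spot errors. ITGA9 went from 58.4 to 39.9, a ratio of -0.55 ± 0.22. ITGB7, a beta chain of lymphocytes that pairs with alpha 4, went from 76.3 to 102, a ratio of 0.42 ± 0.21.

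Over the 18 integrin subunits with a ratio, the median was 0.19, with 10 genes above 0 and 8 below. All 3 subunits lower by more than 2-fold, ITGA2, ITGA4 and ITGA6, were alpha chains, and both that were higher by more than 2-fold, ITGB4 and ITGB8, were beta chains. This is a count of 5 genes and was not tested. It also depends on the processing described below. The normexp background correction adds a constant to each signal, which draws the ratios of dim genes towards 0. With it ITGA4 was at -0.96, ITGB4 at 0.64 and ITGB8 at 0.66, all short of 2-fold.

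**Figure D3:**
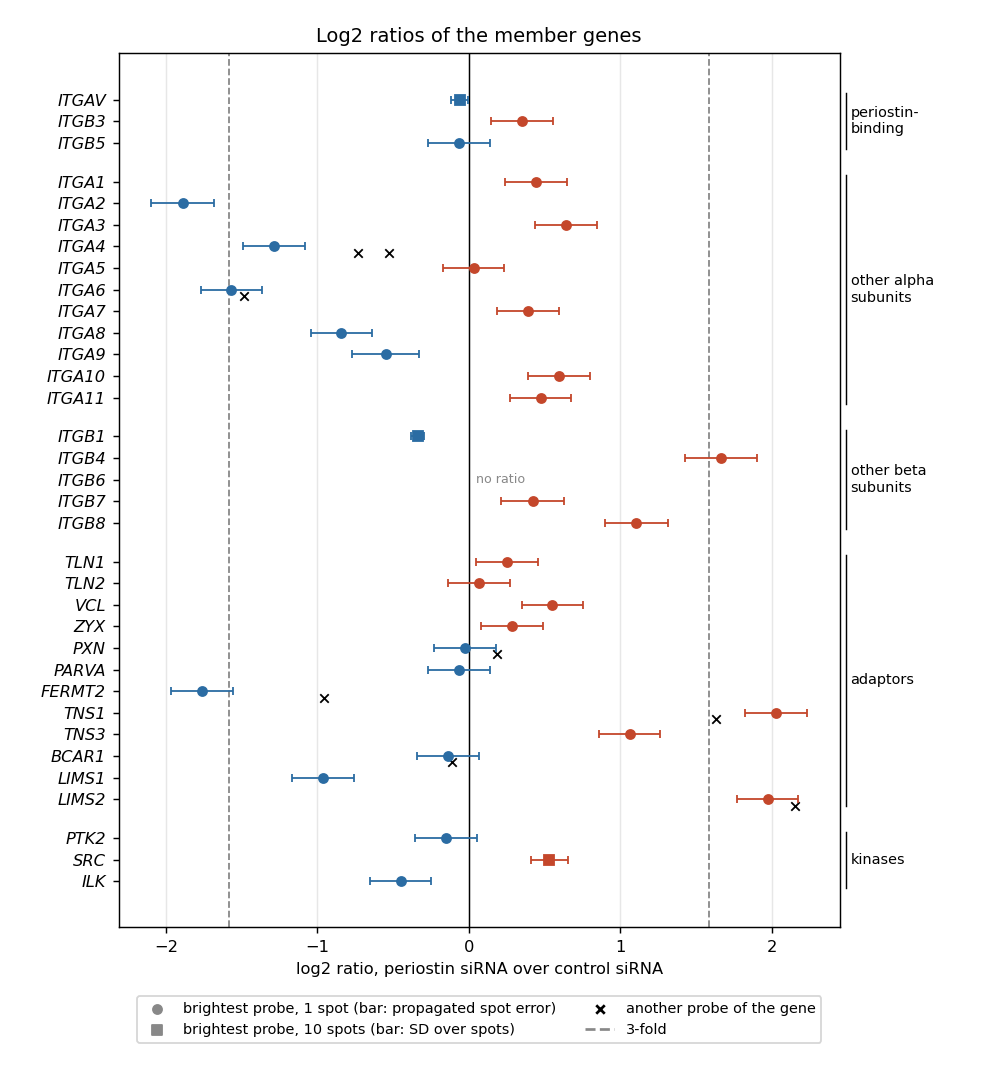
Log2 ratio (periostin siRNA over control siRNA) for each adhesion gene, by role (circles, 1 spot with the propagated error; squares, 10 spots with the SD over spots; crosses, other probes of the same gene; dashed lines, 3-fold). ITGA2 and FERMT2 lie beyond the 3-fold line on the low side and ITGB4, TNS1 and LIMS2 on the high side, whereas ITGAV, ITGB5, ITGA5, PXN, PARVA and TLN2 lie within 0.1 of 0. The group labelled periostin-binding leaves out ITGB1, ITGA6 and ITGB4, chains of further periostin receptors.

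Inside the cell, the genes of the talins, vinculin and zyxin, which link integrins to actin, showed small differences. TLN1, the talin that activates integrins in most cells, went from 883 to 1050, a log2 ratio of 0.25 ± 0.20, and TLN2 from 1390 to 1458, a ratio of 0.07 ± 0.20. VCL encodes vinculin, which is recruited to talin under tension. It went from 7988 to 11717, a ratio of 0.55 ± 0.20. ZYX encodes zyxin, which gathers at stretched stress fibres. It went from 2626 to 3196, a ratio of 0.28 ± 0.20.

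The signalling scaffolds and the kinase PTK2 of the focal adhesion were close to 0. The ratio of SRC was about as far above 0 as that of VCL. PXN, or paxillin, went from 12363 to 12155 on its brightest probe, a log2 ratio of -0.02 ± 0.20, and a dimmer probe for another transcript gave 0.19. BCAR1, the Cas scaffold phosphorylated by Src, went from 10184 to 9260, a ratio of -0.14 ± 0.20. PTK2 encodes focal adhesion kinase. It went from 619 to 557, a ratio of -0.15 ± 0.20. SRC was printed as 10 spots, which ran from 203 to 243 with control siRNA and from 293 to 360 with periostin siRNA. Those spots did not overlap, and the ratio was 0.53 ± 0.12 (SD over 10 spots). A ratio at least as high was found for 19.7% of all genes.

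Kindlin and the complex of integrin-linked kinase, PINCH and parvin held the clearest contrast among the adaptors. FERMT2 encodes the kindlin of fibroblasts, which activates integrins together with talin. It went from 2558 to 755, a log2 ratio of -1.76 ± 0.20, or 3.39-fold lower, and a dimmer probe for another transcript went from 235 to 121, a ratio of -0.96. The direction was shared by both probes, and the size differed by more than their spot errors. ILK, the kinase-like scaffold of the complex, went from 4255 to 3114, a ratio of -0.45 ± 0.20, and PARVA, its actin-binding parvin, from 3643 to 3485, a ratio of -0.06 ± 0.20.

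The PINCH adaptors LIMS1 and LIMS2, which bind the same site of ILK and exclude each other there, lay on opposite sides of 0. LIMS1 went from 1264 to 648, a log2 ratio of -0.96 ± 0.20. LIMS2 went from 1860 to 7306 on its brighter probe, a ratio of 1.97 ± 0.20 or 3.93-fold higher, and from 30.6 to 136 on a dimmer one, a ratio of 2.16. The ratio of LIMS2 lay 2.94 above that of LIMS1, with a spot error of 0.29, and 1.83% of all genes had a ratio at least as high as LIMS2. Near-identical copies of LIMS1 exist in the genome, and the value of LIMS1 is uncertain to the extent that its probe also binds them. The copies named on the array were dim and went the same way. LIMS4 went from 66.8 to 18.1, a ratio of -1.89, and the LIMS3 readthrough gene from 61.2 to 27.3, a ratio of -1.17. Probe sequences were not available, so it is not known whether the probes of the copies also report LIMS1 RNA.

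The 2 tensins among the members were higher. TNS1, which binds beta tails and actin in mature fibrillar adhesions, went from 156 to 636, a log2 ratio of 2.03 ± 0.21 or 4.08-fold higher, the highest of the 33 adhesion genes. A second probe of similar brightness went from 158 to 491, a ratio of 1.63, and the third was well above background only with periostin siRNA, at 12.1, which is at least 1.60-fold higher. TNS3 went from 1650 to 3447, a ratio of 1.06 ± 0.20. Of the tensins outside the members, TNS2 went from 1294 to 1416, a ratio of 0.13, and TNS4 was well above background only with control siRNA, at 8.91. Over the 15 adaptor and kinase genes the median was 0.07, with 8 above 0 and 7 below. None of the 3 genes listed as kinases, ILK among them, was past 2-fold.

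The rest of the pathway was read from lists of genes that are not among the 34. Of 60 other focal adhesion genes, 59 had a ratio, with a median of 0.11, and 46 of them, or 78.0%, lay within 0.5 of 0. None lay beyond 3-fold on the low side and 2 did on the high side. One was PTK2B, the kinase Pyk2 related to focal adhesion kinase, which went from 46.6 to 171, a log2 ratio of 1.88 ± 0.21. The other was NEDD9, a Cas scaffold related to BCAR1, which went from 33.5 to 107, a ratio of 1.67 ± 0.22. A second probe of NEDD9 went from 28.7 to 64.0, a ratio of 1.16, short of 3-fold. The relatives among the 34, PTK2 and BCAR1, had ratios of -0.15 and -0.14. The lowest of the list was PTPN11, the phosphatase SHP2, at -1.15 ± 0.05 (SD over 10 spots). Of the 7 integrins outside the 34, which are chains of leukocytes and platelets, ITGAL and ITGB2 were not well above background on either array. The highest of them was ITGAM, the alpha M chain, at 10.7 and 32.0, a log2 ratio of 1.58 ± 0.60 (SD over 10 spots), and the lowest was ITGAX, well above background only with control siRNA at 25.6, which is at least 3.29-fold higher than with periostin siRNA.

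Of 24 genes of integrin ligands, 23 had a ratio, with a median of -0.05. POSTN was the lowest, and the other ligand lower by more than 3-fold was COL4A1, a basement membrane collagen bound by alpha 1 and alpha 2 integrins, which went from 10515 to 3023, a log2 ratio of -1.80 ± 0.20. The ligand higher by more than 3-fold was VCAM1, bound by alpha 4 integrins, which went from 41.8 to 346, a ratio of 3.05 ± 0.21, while ITGA4 was lower.

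**Figure D4:**
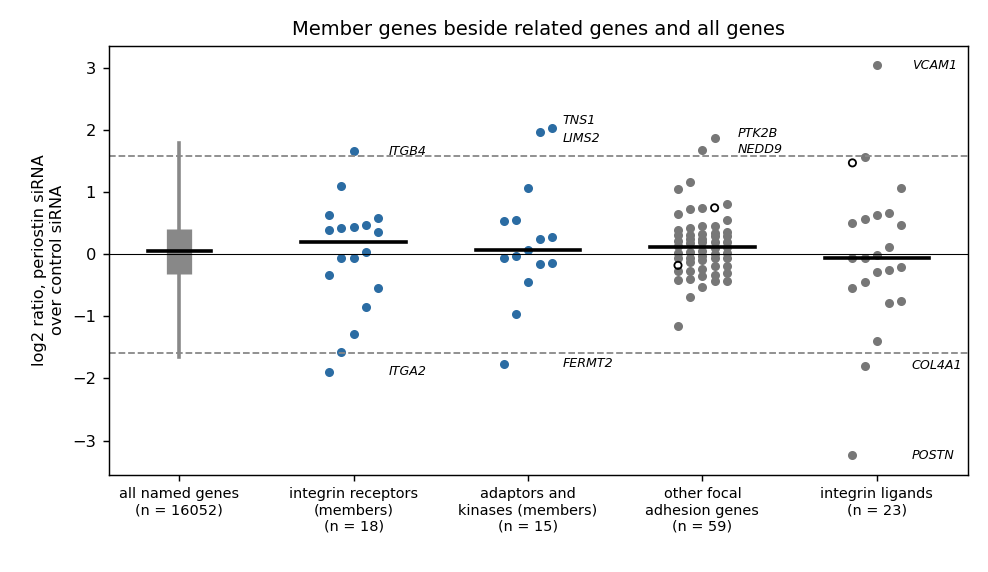
Log2 ratio (periostin siRNA over control siRNA) for the integrin receptors, the adaptors and kinases, the other focal adhesion genes and the integrin ligands (points; open, a bound; bars, medians; dashed lines, 3-fold), beside all named genes (thick bar, middle 50%; thin line, middle 95%). The medians of the 5 sets lie between -0.05 and 0.19, and the names mark genes past 3-fold.

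Processing moved a few of these calls. The deposited table, the filters on dim probes and outlier spots, and scaling on spots well above background could hardly change the ratios. The mean over probes could not change a gene with 1 probe, such as ITGA2 and ITGB4. These settings therefore add little to the tallies out of 10. ITGA2 was past 3-fold under 9 of 10 other settings and reached -1.43 with the normexp background correction, in which background is modelled and a constant offset is added. ITGB4 was past 3-fold under 6 of 10, and fell short of it under normexp, scaling on the median, quantile normalization and loess. Normexp brought this dim gene to 0.64, as it brought ITGB8 to 0.66. FERMT2 was past 3-fold under 9 of 10, and the mean of its probes was -1.36, as that of ITGA4 was -0.85. TNS1 and LIMS2 were past 3-fold under all 10. ITGA6 passed 3-fold when the arrays were scaled on the median, at -1.70, and under loess, at -1.59. Small ratios of ITGA5, TLN2, PXN and PARVA changed sign under at least 1 setting.

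**Figure D5:**
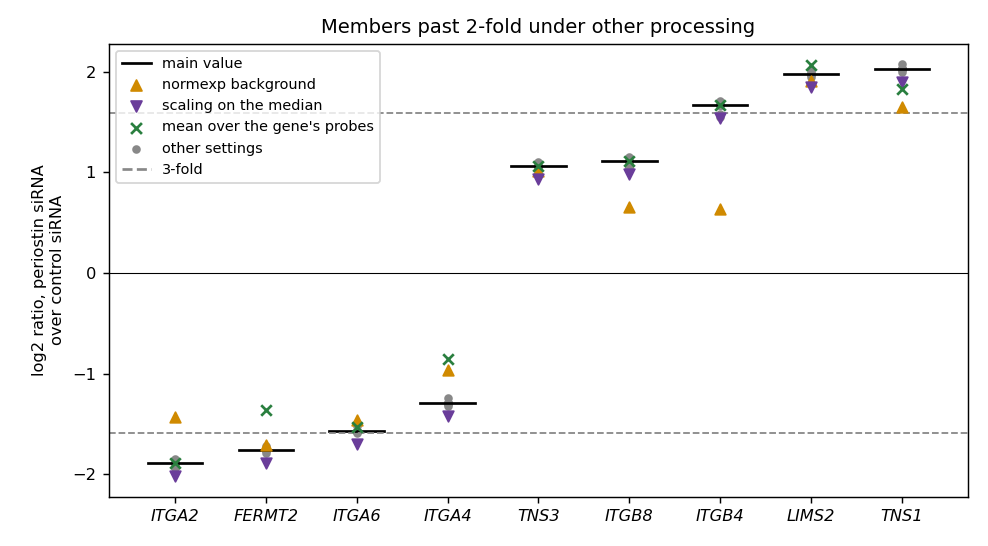
Log2 ratio of the 9 adhesion genes past 2-fold in the main values (black bars) and under each of 10 other processing settings (symbols; dashed lines, 3-fold). No gene crosses 0, and the widest move is that of ITGB4 under the normexp background correction, from 1.67 to 0.64.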

How the data were processed

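RNA of MRC-5 fibroblasts was measured on Agilent SurePrint G3 8x60K v2 arrays, 1 for each siRNA. The authors deposited the scanner output, whose intensity values the scanner software had background-subtracted without scaling between arrays (Feature Extraction 11.5.1.1 in the file headers, 12.0.3.1 in the submitters' processing notes). A normalized intensity table, also deposited, equalled the scanner values of the 49697 probes printed once times a factor of 3.65 (control siRNA) and 3.54 (periostin siRNA). The array was annotated on hg19.

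The log2 of the processed signal of the 58717 non-control spots was taken and the 75th percentile of each array, 372 and 383 before scaling, was subtracted. Signals were well above background for 58.0% and 58.9% of spots, and none was saturated. The spots of a probe were averaged, and the brightest probe over both arrays stood for a gene. A probe well above background on 1 array alone gave a bound, set against the higher of its own dim signal and the lowest such signal of the other array, which after scaling was 7.55 (control siRNA) and 7.77 (periostin siRNA). Symbols came from the RefSeq annotation of GRCh38.p14, which named 65.1% of spots. The SD between repeat spots was taken from the 100 probes nearest in brightness among 667 printed 10 times, and was 0.12 when pooled.

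The members and lists were chosen with earlier results of these data known. All 34 members were named, with POSTN, and of the other lists the genes past 3-fold and the lowest and highest; genes named from the marker lists, TNS2, TNS4 and the LIMS1 copies were picked after their values were seen. With 1 array per group, no p-value was computed. The calculation was run on simulated data, with known differences added to bright genes and with spot noise only. That simulation held no changed dim gene and no difference between cultures, so it does not test the calls made here. The alternatives were normexp with an offset of 50, no scaling, scaling on the median or on spots well above background on both arrays, quantile normalization, loess with a span of 0.3, the deposited table, the mean over probes, filters on dim probes and outlier spots, and thresholds of 2-fold and 4-fold. Python 3.11.15 with numpy 2.4.6 and pandas 2.3.3, and R 4.3.3 with limma 3.58.1, were used. The marker lists are given without an item that is not reported here.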

Additional observations from a re-analysis of the deposited data

How the results depend on the processing

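The count of adhesion genes lower by more than 3-fold went from 2 to 1 with the normexp background correction and with the mean over a gene's probes, and to 3 with scaling on the median and with loess. The count of those higher went from 3 to 2 with normexp, scaling on the median, quantile normalization and loess. With a threshold of 2-fold it was 4 lower and 5 higher, and with 4-fold it was 0 lower and 1 higher. Scaling on the median moved the median log2 ratio of all genes by -0.13, and with it those of the integrin receptors to 0.065, of the adaptors and kinases to -0.059, of the other focal adhesion genes to -0.017 and of the integrin ligands to -0.18. POSTN was at -2.99 with normexp. None of the adhesion genes past 3-fold changed direction under the 10 settings. Of the 330 ratios of single adhesion genes under these settings, 318 moved by no more than their spot error and 12 by more. Many of these settings could not move a typical gene further than that. Omitting or changing the scaling shifted all genes alike, by less than the error of a single spot. The deposited table holds the same signals times 1 factor per array, and the filters changed only ITGB1 and SRC. The count therefore does not measure how firm the ratios are. Over all genes, normexp changed the 3-fold counts from 441 lower and 541 higher to 190 and 143, so that the higher ones made up 42.9% in place of 55.1%. Part of that drop in counts follows from the constant it adds.

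No paired analysis was possible because there was a single array for each siRNA. For the same reason leaving out an array and the slide as a block were not run. Under normexp the dim ITGB4 and ITGB8 moved to 0.64 and 0.66, and ITGA2 to -1.43. The number of arrays limits the precision of every value.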
